A study of Mus musculus with 4 samples.

Results

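Of the 24369 genes listed for each library, 10 were followed here: the 45S pre-rRNA gene *Rn45s* and 9 long noncoding RNAs, which were taken by their symbols. The long noncoding RNAs were the nuclear transcripts *Malat1* and *Neat1* and the 7 snoRNA host genes *Gas5*, *Snhg1*, *Snhg3*, *Snhg5*, *Snhg6*, *Snhg8* and *Snhg12*. RNA-seq had been carried out on CD4 T cells grown from the spleens of WT C57BL/6 mice, to ask which genes respond when the transcription factor Tox is supplied in excess. All cells started as naïve CD4 T cells, were kept without polarizing cytokines on anti-CD3, soluble anti-CD28 and IL-2, and received a retrovirus (RV) on day 2. The virus carried *Tox* together with GFP (Tox RV) or GFP alone (empty vector, EV RV), both from the MSCV backbone, whose viral promoter drives the insert. On day 5 the cells were stimulated again through CD3 for 5 h and GFP+ CD4 T cells were sorted, so that each library is a mixed population of transduced cells and not a clone. There were 2 libraries per group. The libraries of a group came from different mice, and which mouse gave which library is not stated.

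A ribosome is built around RNAs that are cut from one long precursor, the 45S pre-rRNA, which RNA polymerase I makes in the nucleolus. Many of the cuts and base modifications on the precursor are guided by small nucleolar RNAs (snoRNAs), and in mammals most snoRNAs lie in the introns of other genes. The *Snhg* genes and *Gas5* are such hosts: after splicing, the introns give the snoRNAs, while the joined exons make a noncoding RNA that is often bound by ribosomes and removed by nonsense-mediated decay. Many host genes belong to the 5′ terminal oligopyrimidine (5′TOP) class, whose transcripts start with C and a run of pyrimidines and whose output is tied to growth signals. *Malat1* RNA sits in nuclear speckles near splicing factors, and *Neat1* is the RNA scaffold of paraspeckles. T cells enlarge and make many ribosomes after activation.

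The start regions of the host genes are shown so that the bases at each annotated start can be set against the 5′TOP form described above, which most of them did not match in full. They were read from RefSeq on GRCm38.p6, the same build as mm10, and run 5′ to 3′ on the coding strand from 50 bases before the annotated start through the 50 bases that begin with it. An entry was found for 7 of the 10 genes, *Malat1* and 6 of the 7 hosts. Capitals mark a TATA (or TATATA) between 40 and 16 bases before the start and the longest unbroken run of at least 5 C or T that lies from 5 bases before to 20 bases after it. The windows are *Gas5* (second annotated start) at chr1:161035116-161035215 on the plus strand, *Snhg1* at chr19:8723437-8723536 on the plus strand, *Snhg3* at chr4:132353637-132353736 on the minus strand, *Snhg5* at chr9:88522848-88522947 on the minus strand, *Snhg8* at chr3:123508287-123508386 on the minus strand and *Snhg12* at chr4:132308628-132308727 on the plus strand.
Gas5: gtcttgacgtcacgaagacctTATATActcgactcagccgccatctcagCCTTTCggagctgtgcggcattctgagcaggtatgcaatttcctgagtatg
Snhg1: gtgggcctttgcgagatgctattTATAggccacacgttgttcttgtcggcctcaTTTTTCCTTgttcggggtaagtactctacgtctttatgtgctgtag
Snhg3: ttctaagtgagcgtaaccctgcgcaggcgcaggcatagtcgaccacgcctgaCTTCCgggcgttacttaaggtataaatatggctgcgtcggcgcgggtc
Snhg5: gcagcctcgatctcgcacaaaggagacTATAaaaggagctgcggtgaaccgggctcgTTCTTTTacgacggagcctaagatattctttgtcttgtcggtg
Snhg8: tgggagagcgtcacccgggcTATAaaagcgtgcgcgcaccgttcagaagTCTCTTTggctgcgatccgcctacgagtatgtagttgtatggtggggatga
Snhg12: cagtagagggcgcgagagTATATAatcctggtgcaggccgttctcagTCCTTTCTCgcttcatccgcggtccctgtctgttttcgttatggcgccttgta

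The 6 host genes have 7 annotated starts in this table, because *Gas5* has 2. TATA was found at 5 of the 7 starts, and 5.91% of all 32851 promoter entries of the same length hold it. The run of at least 5 C or T was found at 6 of the 7 starts, against 40.2% of all entries. A C at the annotated start itself, followed by at least 4 C or T, was found at the second *Gas5* start and at *Snhg8*, and in 2.51% of all entries. The first *Gas5* start and *Malat1* held neither feature. Only the coding strand was searched, and a match of letters in such a window does not show that the start is used in these cells.

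The libraries held 46989997 and 74548723 expected counts in EV RV against 61442264 and 49012254 in Tox RV, where an expected count is the estimated number of reads from a gene. The labels were checked with *Tox*, which was at 11.7 and 5.73 counts per 1000000 (CPM, here scaled with edgeR's TMM factors) in EV RV and at 121 and 99.9 in Tox RV. The summed level of 5 CD4 T cell markers lay between 1193 and 1710 transcripts per 1000000 (TPM, a level per transcript length) in EV RV and between 1378 and 1649 in Tox RV. The summed level of *Cd8a* and *Cd8b1* was at most 4.98 TPM, and the B cell gene *Ms4a1* was at 0 in all 4 libraries. EV RV replicate 1 stood apart: on the first principal component of the expression values, which held 58.0% of the variance, it was at -53.8 and the other libraries were between 5.70 and 25.8. In the same library and in Tox RV replicate 1 the natural killer cell markers *Klrd1* and *Klrk1* were at their highest, with *Ncr1* at 0 in every library, so that the list summed to 9.67 to 53.0 TPM in EV RV against 6.70 to 30.5 TPM in Tox RV. Whether natural killer cells were present in the sorted populations was not tested, nor was any part of such cells in the results below. The fold changes of *Rn45s*, *Malat1* and *Neat1* are also given without EV RV replicate 1. So are the median and range over the snoRNA hosts and the medians of the gene lists below.

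*Rn45s* was by count the most abundant of the 10 genes. It received 11628598 and 8925433 expected counts in EV RV against 6348338 and 3501035 in Tox RV. As a share of the library this was 24.7% and 11.97% in EV RV against 10.3% and 7.14% in Tox RV. The highest share was thus in EV RV replicate 1 and the lowest in Tox RV replicate 2, and the groups did not overlap. The counting error was small beside these differences, with a 95% Wilson interval of 24.73 to 24.76% in EV RV replicate 1 and of 7.136 to 7.150% in Tox RV replicate 2. Such intervals cover counting error only, and not the spread between the libraries of a group.

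**Figure D1:**
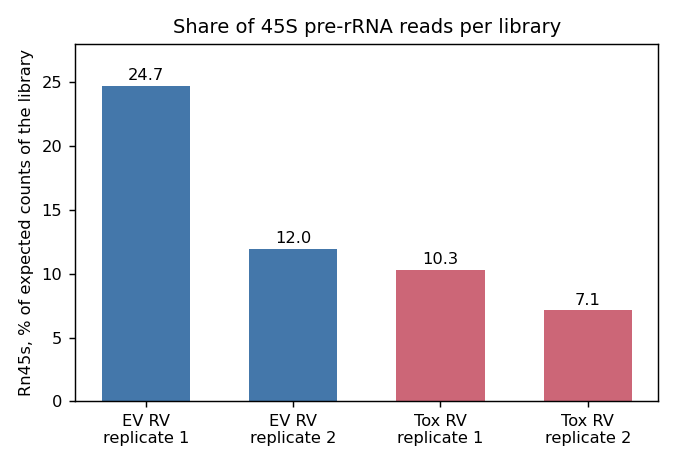
Bars give *Rn45s* as a percentage of all expected counts in each of the 4 libraries (y axis from 0; EV RV in blue, Tox RV in red; 1 library per bar, so no error bars). EV RV replicate 1, at 24.7%, is set off from the other libraries, which lie between 7.14 and 11.97%.

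The mean share of *Rn45s* was 18.4% ± 9.03 (SD, n = 2) in EV RV against 8.74% ± 2.25 (SD, n = 2) in Tox RV. An exact two-sided permutation test gave p = 0.333, which is the smallest value that 2 libraries against 2 allow. In the fit over all 14143 genes that passed the count filter, the log2 fold change (Tox RV over EV RV) of *Rn45s* was -1.23 with an SE of 0.42 and a 95% interval of -2.26 to -0.19. The unadjusted p was 0.0275 in edgeR's quasi-likelihood test, and the Benjamini-Hochberg adjusted p was 0.897. The difference therefore did not pass the threshold of 0.05. It also rested in large part on 1 library: leaving out EV RV replicate 1 gave a log2 fold change of -0.49 (adjusted p = 0.709 in the same test), leaving out EV RV replicate 2 gave -1.71 (adjusted p = 0.0331), leaving out Tox RV replicate 1 gave -1.54 (adjusted p = 0.00150) and leaving out Tox RV replicate 2 gave -0.96 (adjusted p = 0.461). Each of these fits has 1 library in one group, which is assumed to vary like the pair in the other. The call depended on the model as well. Without the count filter the adjusted p was 0.0312 in the same test, at a log2 fold change of -1.20. With a replicate block the adjusted p was 0.0138 in the same test, at a log2 fold change of -1.13. The replicate numbers are not known to mark a mouse, so the blocked fit is given as an alternative only. The EV RV libraries differed from each other by 1.23 on the log2 CPM scale, as much as the groups did.

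The *Rn45s* row is made from 1 transcript record of 13400 bases, NR_046233, which includes the mature 18S, 5.8S and 28S rRNAs as well as the spacers that are cut out. A read from finished ribosomes and a read from the unprocessed precursor therefore enter the same count, and precursor and finished rRNA cannot be told apart. The level of rRNA in a library also depends on how the RNA was selected before sequencing, which is not given in the sources used here. Other noncoding RNAs of known structure did not share one pattern. *Rpph1*, the RNA subunit of RNase P, which trims tRNAs, was at 8184 and 7462 CPM in EV RV against 8498 and 8088 CPM in Tox RV. *Rmrp*, the RNA of the RNase MRP that takes part in rRNA processing, was at 2998 and 3993 CPM in EV RV against 3783 and 3376 CPM in Tox RV. Like *Rn45s*, *Rn4.5s* was highest in EV RV replicate 1, at 175 CPM, and was between 38.6 and 39.6 CPM in the other libraries. Of the 7 tested structural RNAs 2 were higher and 5 lower in Tox RV, the median log2 fold change being -0.46, or -0.25 without EV RV replicate 1, and none passed the adjusted threshold. *Terc*, *Vaultrc5* and *Snora23* had the same order of libraries as *Rn45s*, without overlap between the groups. *Vaultrc5*, a vault RNA, was at 32.3 and 21.8 CPM in EV RV against 15.4 and 14.1 CPM in Tox RV. Of all tested genes 17.4% did not overlap and were lower, and 7.18% had this order of libraries.

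Genes whose profile over the 4 libraries was among the most like that of *Rn45s* were found by the root mean square distance of log2 CPM, each gene centred on its own mean, among 11528 other genes. *Kmt2d*, a histone H3 lysine 4 methyltransferase, was nearest at a distance of 0.121, and further genes near it were *Peak1* at 0.145, the cofilin phosphatase *Ssh1* at 0.149 and *Mospd3* at 0.157. *Kmt2d* was at 770 and 318 CPM in EV RV against 281 and 226 CPM in Tox RV, the same order of libraries as *Rn45s*. That order, with EV RV replicate 1 highest and Tox RV replicate 2 lowest, was shared by 7.18% of all tested genes. The likeness is over 4 libraries only and is a description.

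*Malat1*, an unspliced RNA at chr19:5795690-5802672 on the minus strand (GENCODE M21, mm10), was the second of the 10 genes by count. It received 156041 and 227590 expected counts in EV RV against 211116 and 142398 in Tox RV. To take *Rn45s* out of the denominator, counts were also set against the library total without it, per 1000000 of the remaining reads. On that scale *Malat1* was at 4413 and 3468 in EV RV and at 3832 and 3129 in Tox RV. The groups overlapped, and the 2 libraries numbered 1 were above the 2 libraries numbered 2. The log2 fold change was -0.14 with an SE of 0.19 and a 95% interval of -0.61 to 0.33, and it was 0.018 without EV RV replicate 1 and 0.0014 without Tox RV replicate 2. Set against *Malat1*, there were 74.5 and 39.2 *Rn45s* reads for each *Malat1* read in EV RV, against 30.1 and 24.6 in Tox RV.

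*Neat1* lies near *Malat1* at chr19:5824708-5845478 on the minus strand. Its annotated span of 20771 bases is that of the long, paraspeckle-forming transcript, whereas the counted record, NR_003513, is the short transcript of 3177 bases from the 5′ end. The row thus counts the part that both forms share and misses reads from the rest of the long form. It received 4492 and 6730 expected counts in EV RV against 5522 and 3322 in Tox RV, which was 127 and 103 reads per 1000000 without *Rn45s* in EV RV against 100.2 and 73.0 in Tox RV. Both Tox RV libraries were below both EV RV libraries, although Tox RV replicate 1 and EV RV replicate 2 were nearly equal. The log2 fold change was -0.36 with an SE of 0.22 and a 95% interval of -0.91 to 0.18 (adjusted p = 0.897, edgeR's quasi-likelihood test). Without EV RV replicate 1 it was -0.23.

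*Rn45s* and *Neat1* were thus the 2 of the 10 genes whose groups did not overlap in CPM, both lower in Tox RV; among all tested genes 17.4% did not overlap and were lower, and 36.0% did not overlap in either direction. Relative to *Malat1*, *Neat1* counts came to 2.88% and 2.96% in EV RV against 2.62% and 2.33% in Tox RV. The difference between the groups in this ratio was small, but the ranges were separate.

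**Figure D2:**
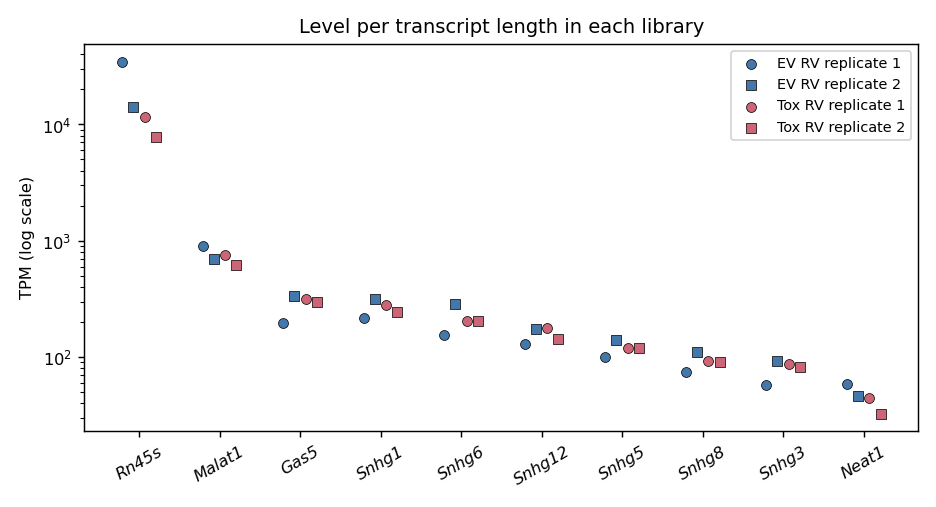
Points give the TPM of each of the 10 genes in each library on a log axis (EV RV in blue, Tox RV in red; circles are replicate 1 and squares replicate 2), ordered by the mean over the 4 libraries. *Rn45s* lies above all others in every library, at 7836 TPM or more, and *Malat1*, at 618 to 904 TPM, lies above the hosts and *Neat1*.

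Per transcript length the order of the 10 genes by mean TPM over the 4 libraries was *Rn45s* (17072), *Malat1* (742), *Gas5* (285), *Snhg1* (265), *Snhg6* (212), *Snhg12* (156), *Snhg5* (120), *Snhg8* (92.0), *Snhg3* (80.0) and *Neat1* (45.5). *Rn45s* and *Malat1* held their places in every library. *Gas5* and *Snhg1* were not separated, since *Snhg1* was above *Gas5* in EV RV replicate 1 (216 and 196 TPM). *Snhg3* and *Neat1* also changed places there, at 57.5 and 58.8 TPM. *Gas5* has a further limit on its level: the counted record, NR_002840, is 2554 bases long, about as long as annotated forms that keep introns. Its TPM is therefore lower than it would be for a spliced transcript with the same reads. The *Snhg8* record, of 785 bases, is likewise near an annotated form that keeps an intron (776 bases) and above the longest spliced form (528 bases). The *Snhg5* record, of 1084 bases, is also above the longest spliced form of that gene (1004 bases).

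*Gas5*, at chr1:161034422-161038539 on the plus strand, accumulates in cells that stop growing and holds 10 snoRNA genes in the annotation used. It was the host with the most reads, with 11872 and 38261 expected counts in EV RV against 30923 and 24181 in Tox RV. Per 1000000 reads without *Rn45s* it was at 336 and 583 in EV RV and at 561 and 531 in Tox RV. EV RV replicate 1 was the low library, and the Tox RV libraries lay between the EV RV ones. The log2 fold change was 0.28 with an SE of 0.29 and a 95% interval of -0.43 to 1.00.

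*Snhg1*, at chr19:8723475-8726443 on the plus strand, holds 8 snoRNA genes. It was at 50.5 and 75.9 reads per 1000000 without *Rn45s* in EV RV and at 68.6 and 59.5 in Tox RV, from 1786 to 4983 counts. Again EV RV replicate 1 was lowest and EV RV replicate 2 highest. *Snhg12*, at chr4:132308623-132311024 on the plus strand, holds 5 snoRNA genes and was at 42.5 and 57.7 per 1000000 in EV RV and at 60.3 and 48.3 in Tox RV. It was the one host with its highest value in a Tox RV library, replicate 1. The log2 fold changes were 0.053 for *Snhg1* (SE 0.25) and 0.15 for *Snhg12* (SE 0.23), and without Tox RV replicate 1 they were -0.055 and -0.017.

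*Snhg3*, at chr4:132348014-132353686 on the minus strand, hosts *Snora73a* and *Snora73b*, the U17 snoRNAs needed for the first cuts of the precursor. It had the fewest reads of the 10 genes, from 418 to 1278, and was at 11.8 and 19.5 per 1000000 without *Rn45s* in EV RV and at 18.9 and 17.5 in Tox RV. Its log2 fold change was 0.25 with an SE of 0.28. *Snhg5*, at chr9:88521050-88522929 on the minus strand, hosts *Snord50a* and *Snord50b* and was at 66.6 and 96.5 per 1000000 in EV RV and at 83.1 and 83.6 in Tox RV. In both genes EV RV replicate 1 was lowest and EV RV replicate 2 highest, with the Tox RV pair in between.

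*Snhg6*, at chr1:9941959-9944118 on the minus strand, hosts *Snord87* and was at 28.2 and 53.7 per 1000000 without *Rn45s* in EV RV and at 39.3 and 39.1 in Tox RV. *Snhg8*, at chr3:123507552-123508404 on the minus strand, hosts *Snora24* and was at 33.6 and 51.5 per 1000000 in EV RV and at 43.7 and 42.9 in Tox RV. The Tox RV values nearly coincided for both genes, while the EV RV values differed by 1.90-fold for *Snhg6* and 1.53-fold for *Snhg8*. The log2 fold changes were -0.032 for *Snhg6* (SE 0.33, and 0.060 when scaled by library totals), 0.061 for *Snhg8* (SE 0.25) and 0.067 for *Snhg5* (SE 0.23).

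For the long noncoding RNAs the half-width of the 95% Wilson interval was at most 9.60% of the value, for *Snhg3* in EV RV replicate 1, and 0.519% at most for *Malat1*.

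**Figure D3:**
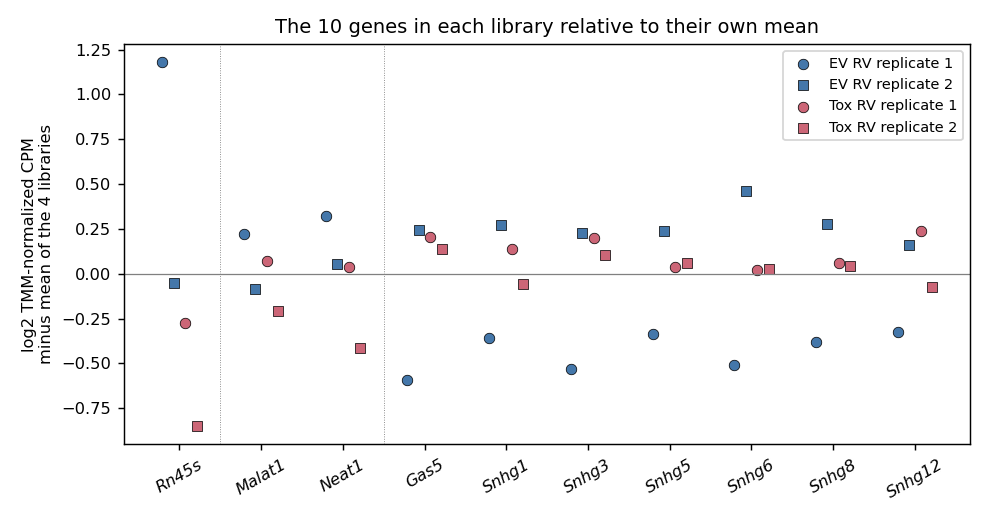
Each point is the log2 TMM-normalized CPM of 1 gene in 1 library minus the gene's mean over the 4 libraries (EV RV in blue, Tox RV in red; circles are replicate 1 and squares replicate 2). In EV RV replicate 1 the 7 hosts are the lowest of the 4 libraries while *Rn45s*, *Malat1* and *Neat1* are the highest.

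The 7 hosts had a common profile. All 7 were lowest in EV RV replicate 1, which was the lowest library for 37.0% of all tested genes, and 6 of the 7 were highest in EV RV replicate 2, which was the highest for 20.7%. The log2 ratio of EV RV replicate 1 to EV RV replicate 2 was between -0.97 and -0.48 in the hosts, with a median of -0.66, against a median of 0.00465 over all tested genes. For *Rn45s* the same ratio was 1.23. Summed, the hosts gave 569 and 938 reads per 1000000 without *Rn45s* in EV RV against 875 and 822 in Tox RV. Relative to *Malat1* reads they came to 12.9% and 27.0% in EV RV and to 22.8% and 26.3% in Tox RV. The Tox RV libraries and EV RV replicate 2 were thus close to each other, and EV RV replicate 1 was the library that differed.

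**Figure D4:**
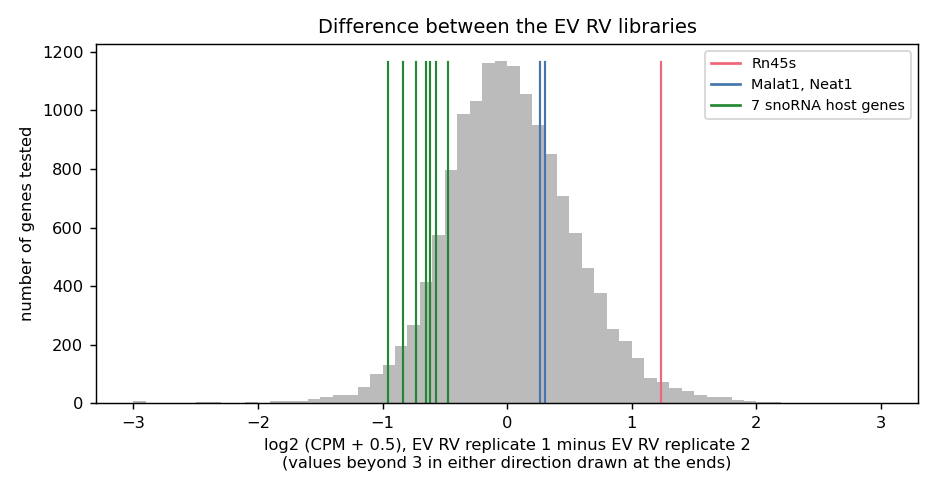
The grey histogram counts the tested genes by the log2 (CPM + 0.5) of EV RV replicate 1 minus that of EV RV replicate 2, and lines mark the 10 genes. The 7 hosts (green) all lie on the negative side, with a median of -0.66, and *Rn45s* (red) lies at 1.23 on the positive side.

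Which EV RV library was used as the control decided the direction for the hosts. With all libraries 6 of the 7 were higher in Tox RV, and the median difference was 0.067 on the log2 scale. Without EV RV replicate 1 all 7 were lower, with a median of -0.20 and a range of -0.44 to -0.073. Without EV RV replicate 2 all 7 were higher, with a median of 0.43 and a range of 0.39 to 0.77, and *Gas5* then had an adjusted p of 0.0453 in edgeR's quasi-likelihood test, in which the lone EV RV library was assumed to vary like the Tox RV pair. No direction can be given for the hosts from these libraries.

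**Figure D5:**
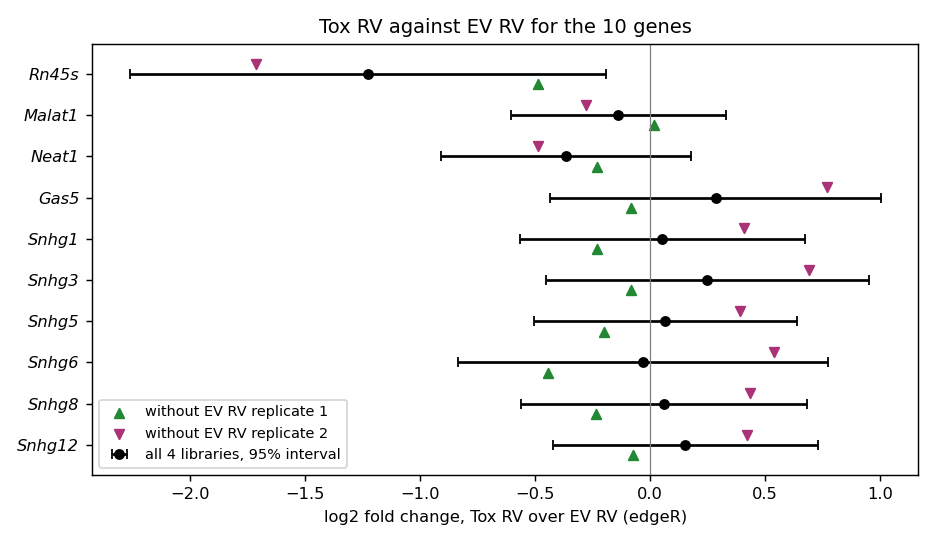
Black points and bars give the log2 fold change (Tox RV over EV RV, edgeR) with its 95% interval for each of the 10 genes, and triangles give the value without EV RV replicate 1 (green) or without EV RV replicate 2 (purple). The intervals of all genes but *Rn45s* include 0, and the triangles of all 7 hosts lie on opposite sides of 0.

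Over the 10 genes, 6 were higher and 4 were lower in Tox RV, and 50.4% of all tested genes were higher. None of the 10 had an adjusted p below 0.05, nor did any of the 14143 tested genes (0.0%); the smallest adjusted p of all, 0.490, was that of *Tox*. At an unadjusted p below 0.05 only *Rn45s* was found, where 2.55% of all tested genes were lower and 1.07% higher. DESeq2 called none of the 10 (adjusted p = 0.255 for *Rn45s*) and 22 genes in all, which is 0.121% of those it gave an adjusted p. These libraries come from bulk populations, in which fewer cells of a type and less RNA per cell cannot be told apart.

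The snoRNAs inside the hosts were not measured. The annotation puts 29 snoRNA gene entries within the 7 hosts, some of them under a repeated symbol. A row was found for 8 of the symbols, and all 8 were at 0 counts in every library. Their effective length, the number of positions where a read can start, was listed as 0, because they are shorter than the reads. A count of 0 here says nothing about the snoRNA. Host reads could also be shared with neighbours where the counted transcripts overlap, which was not examined. By whole annotated span, introns included, *Gas5* overlaps *Zbtb37* and *Snhg6* overlaps *Mcmdc2* on the opposite strand. *Snhg3* overlaps *Rcc1*, the exchange factor for the GTPase Ran, on its own strand. *Rcc1* had 3054 and 8851 counts in EV RV against 5678 and 5468 in Tox RV. Whether counting used the strand is not stated, so reads in these overlaps may have been split in a way that cannot be checked.

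Other snoRNA hosts were examined for the same pattern. Of 14 tested, 8 were higher and 6 lower in Tox RV, the median log2 fold change being 0.063 (-0.12 without EV RV replicate 1). Of the 14, 8 (57.1%) were lowest in EV RV replicate 1, against 37.0% of all tested genes. Those 8 included the noncoding hosts *Snhg4*, *Snhg7* and *Dancr*: *Snhg4* was at 18.5 and 25.6 CPM in EV RV against 25.6 and 23.8 CPM in Tox RV. Other noncoding hosts did not have it: *Snhg10* was lowest in Tox RV replicate 1, *1110038B12Rik* was lowest in EV RV replicate 2, and *Snhg11* was highest in EV RV replicate 1, at 5.48 CPM. The protein-coding hosts with the highest TPM were the chaperone gene *Hspa8*, the ribosomal scaffold gene *Gnb2l1*, *Tpt1* and the elongation factor gene *Eef2*. *Eef2* was at 4911 and 4235 CPM in EV RV and at 5197 and 4762 CPM in Tox RV, so that it did not show the low value in EV RV replicate 1. *Tpt1* was also higher in EV RV replicate 1 (1583 CPM) than in EV RV replicate 2 (1251 CPM). None of the 14 passed the adjusted threshold.

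The genes that make and process the precursor were counted beside *Rn45s*. Of 21 genes of RNA polymerase I transcription 20 were higher in Tox RV, with a median log2 fold change of 0.12, against a median of 0.00361 over all tested genes. Without EV RV replicate 1 the median was 0.032. Of the 21, 14 (66.7%) were lowest in that library, against 37.0% of all tested genes. *Ubtf*, which opens the ribosomal gene repeats to the polymerase, was at 354 and 348 CPM in EV RV and at 367 and 364 CPM in Tox RV. The polymerase subunit gene *Polr1d* was at 114 and 125 CPM in EV RV and at 146 and 129 CPM in Tox RV. Differences of this size are small beside that of *Rn45s*, and none of the 21 passed the adjusted threshold.

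Of 17 genes for snoRNP proteins, which form the working particle with a snoRNA, 15 were higher in Tox RV. The median log2 fold change of the 17 was 0.17. Of the 17, 14 (82.4%) were lowest in EV RV replicate 1, against 37.0% of all tested genes. *Nop56*, a core protein of box C/D particles, was at 254 and 384 CPM in EV RV and at 374 and 362 CPM in Tox RV, and *Fbl*, their methyltransferase, at 92.3 and 117 CPM in EV RV and at 121 and 111 CPM in Tox RV. Of 28 processing factors 25 were higher and 3 lower, with a median of 0.25, and 19 (67.9%) were lowest in EV RV replicate 1. The groups did not overlap for 17 of the 28 that were higher and 2 that were lower. Among all tested genes the shares were 18.6% higher and 17.4% lower. *Npm1*, the nucleolar protein nucleophosmin, was at 747 and 1410 CPM in EV RV and at 1378 and 1390 CPM in Tox RV. *Ncl*, which encodes nucleolin and is itself a snoRNA host, went the other way, at 585 and 407 CPM in EV RV and at 343 and 289 CPM in Tox RV, with a log2 fold change of -0.65. Without EV RV replicate 1 the median was -0.027 for the snoRNP proteins and 0.096 for the processing factors. No gene of these lists passed the adjusted threshold with all 4 libraries.

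The protein partners of *Neat1* and *Malat1* were counted in the same way. Of 15 paraspeckle proteins 9 were higher and 6 lower in Tox RV, with a median log2 fold change of 0.12, which turned to -0.066 without EV RV replicate 1. *Sfpq*, an RNA-binding protein that paraspeckles need, was at 495 and 489 CPM in EV RV and at 491 and 489 CPM in Tox RV, and its partner *Nono* at 243 and 370 CPM in EV RV and at 344 and 414 CPM in Tox RV. Of 16 nuclear speckle proteins 11 were higher and 5 lower, with a median of 0.12 (-0.052 without EV RV replicate 1), and the splicing factor *Srsf2* was at 369 and 510 CPM in EV RV and at 456 and 527 CPM in Tox RV. Of 16 genes of nonsense-mediated decay, which degrades many host transcripts, 9 were higher and 7 lower, with a median of 0.043 (-0.016 without EV RV replicate 1). Its helicase gene *Upf1* was at 184 and 149.2 CPM in EV RV and at 147 and 143 CPM in Tox RV. None of these genes passed the adjusted threshold. EV RV replicate 1 was the lowest library for 60.0% of the paraspeckle, 68.8% of the nuclear speckle and 56.2% of the decay genes. The share over all tested genes was 37.0%.

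Of 18 other long noncoding RNAs that were tested, 5 were higher and 13 lower in Tox RV, the median log2 fold change being -0.15, and 7 did not overlap between the groups and were lower, as *Neat1* was and as 17.4% of all tested genes were. Only 3 (16.7%) were lowest in EV RV replicate 1, against 37.0% of all tested genes. *Xist*, the RNA that coats the inactive X chromosome, was at 1838 and 1046 CPM in EV RV and at 835 and 805 CPM in Tox RV, with a log2 fold change of -0.81 (unadjusted p = 0.0298 and adjusted p = 0.897, edgeR's quasi-likelihood test). As with *Rn45s*, EV RV replicate 1 was the high library. *Tug1* was at 126 and 114 CPM in EV RV and at 110 and 112 CPM in Tox RV. In contrast, *2900097C17Rik* was at 343 and 515 CPM in EV RV and at 466 and 539 CPM in Tox RV, with a log2 fold change of 0.23. That of *1700020I14Rik* was 0.012. None of the 18 passed the adjusted threshold, and the median was -0.092 without EV RV replicate 1.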

How the data were processed

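CD4 T cell RNA from 2 EV RV and 2 Tox RV libraries was analysed. Per the labels and methods, the authors aligned reads to mm10 transcripts with bowtie and quantified genes with RSEM, each library separately; Bowtie2, FastQC and DESeq2 are also named in the submitters' processing notes. The deposited expected counts are RSEM estimates per gene, not normalized. The deposited TPM values are per 1000000 transcripts, and the deposited FPKM values, per kilobase and 1000000 reads, are not reported here, and a further table of the series was not used. Effective lengths were those of single reads of 150 bases; whether mates were counted separately is not stated.

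Expected counts were rounded and tested with edgeR 4.0.16 in R 4.3.3 (filterByExpr with a minimum count of 10, TMM, quasi-likelihood test, no block, Benjamini-Hochberg over 14143 genes, threshold 0.05). The scripts were tested on simulated data. Total counts per library ranged from 46989997 to 74548723. DESeq2 1.42.0, limma 3.58.1 on log2 (TPM + 1) and log2 (TPM + 0.1), other scalings, no filter, a replicate block and leaving out each library were alternatives. Within each group the replicates were further apart than sampling noise allows (chi-square test), and no library was counted as a repeat. Genes other than the members were named as the 4 of highest mean TPM in a list, or the 5 nearest to *Rn45s* in profile (some are not reported here); *Snhg4*, *Snhg7*, *Dancr*, *Rcc1*, *Zbtb37*, *Mcmdc2*, *Ncl*, *Vaultrc5* and others outside that rule were chosen after their values were seen. The members and gene lists were chosen with earlier results of these data known.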

Additional observations from a re-analysis of the deposited data

How the results depend on the processing

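With 2 libraries per group, most differences were within the spread between replicates. Without the count filter the log2 fold change of *Rn45s* was -1.20 with an adjusted p of 0.0312, and with the replicate block it was -1.13 with an adjusted p of 0.0138 (edgeR's quasi-likelihood test); each of these fits called 1 of the 10 genes instead of 0. The replicate block called 16 genes in all, DESeq2 22 and the fit without a filter 22, against 0 in the unblocked fit. The replicate numbers are not known to mark a mouse. Over the tested genes the difference between the EV RV libraries correlated at 0.302 with that between the same-numbered Tox RV libraries. There are only 2 pairs, so that the paired values are not preferred. *Snhg6* changed sign, to 0.060 with library totals, 0.046 with the replicate block and 0.062 as a share of the whole library. Scaling by library totals moved the median log2 fold change of all tested genes to 0.12, with 64.4% of genes higher in place of 50.4%. Leaving out each library in turn gave log2 fold changes from -1.71 to -0.49 for *Rn45s*, -0.29 to 0.018 for *Malat1*, -0.081 to 0.77 for *Gas5*, -0.23 to 0.41 for *Snhg1*, -0.084 to 0.69 for *Snhg3*, -0.20 to 0.39 for *Snhg5*, -0.44 to 0.54 for *Snhg6*, -0.24 to 0.43 for *Snhg8* and -0.073 to 0.42 for *Snhg12*, with -0.61 to -0.15 for *Neat1*. As log2 ratios of the mean shares without *Rn45s* the ranges were -0.34 to 0.0051 for *Malat1*, -0.094 to 0.70 for *Gas5*, -0.25 to 0.34 for *Snhg1*, -0.097 to 0.62 for *Snhg3*, -0.21 to 0.32 for *Snhg5*, -0.46 to 0.47 for *Snhg6*, -0.25 to 0.37 for *Snhg8* and -0.087 to 0.36 for *Snhg12*. From 0 to 2 of the 10 genes were then called, 1 to 7 were higher in Tox RV, and 1 to 600.0 genes were called in all. The fit without EV RV replicate 2, in which the lone EV RV library was assumed to vary like the Tox RV pair, gave the highest counts of calls and called 4 of the processing factors, 3 of the nuclear speckle proteins, 2 each of the paraspeckle proteins, snoRNP proteins and structural RNAs, and 1 each of the other host genes, other long noncoding RNAs and decay factors, against 0 in all of these lists with all libraries. The cause of these shifts was not tested. Other scalings, limma and the removal of the *Rn45s* row changed no other direction or call of the 10 genes.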
